A study of Homo sapiens with 36 samples.

Results

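The genes described here are FOS, JUN and their close relatives together with 3 other genes of the early response to growth factors and stress, 10 genes in all (FOS, FOSB, FOSL1, FOSL2, JUN, JUNB, JUND, EGR1, ATF3 and IER2) out of 29872 in the deposited table. They were picked by symbol, matched to Ensembl identifiers through GENCODE release 44, and all 10 were found. The list was drawn up because these genes vary between replicate libraries, and with the low FOS level of treated cells at 72 h already known. The spread between replicates, and FOS at 72 h against vehicle and between times, are therefore given as descriptions without a test. FOS stayed among the members tested between inhibitors and between doses at 72 h, where the main fit did not call it. Those FOS values are also only described, and no result is read from their test. The libraries are total RNA from LNCaP, a human prostate carcinoma line, in 12 groups of 3 libraries. Cells received vehicle, the CDK4 inhibitor AU2-94 at 1 or 2 µM, the CDK4 inhibitor atirmociclib at 1 or 2 µM, or the CDK4/6 inhibitor ribociclib at 2 µM, and were taken after 24 or 72 h. Wells for the 72 h groups were seeded with fewer cells than those for the 24 h groups, so time in culture and seeding density cannot be told apart. At each time the 5 treatments share the same 3 vehicle libraries.

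FOS and JUN proteins pair through leucine zippers to form AP-1, a transcription factor that binds DNA as a dimer. FOS proteins need a JUN partner, whereas JUN proteins can also pair with each other, and the composition of the dimer is known to change what AP-1 does. Immediate early genes are switched on within minutes of a stimulus without new protein synthesis, largely through MAP kinases acting on the serum response factor SRF and on CREB, and their RNAs are short-lived. FOSL2 and JUND are the members that many cells keep at a steady level outside such bursts.

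The promoters of 5 members are shown because they belong to genes with different behaviour: FOS, which was far below vehicle at 72 h, FOSL2 and JUN, which rose, IER2, which fell, and EGR1, which did not pass the test. Each run is 300 bases from RefSeq (GRCh38.p14), 250 before the transcription start to 50 after it, read along the gene. Capitals mark the motifs searched, which were the CArG box bound by SRF, the CRE core TGACG (printed as CGTCA where it lies on the other strand), the full CRE TGACGTCA (which holds a core on each strand), the AP-1 site TGANTCA and, on the gene's strand only, the TATA motif TATAAA. All but the last were searched on both strands.
FOS, chr14:75278578-75278877, plus strand: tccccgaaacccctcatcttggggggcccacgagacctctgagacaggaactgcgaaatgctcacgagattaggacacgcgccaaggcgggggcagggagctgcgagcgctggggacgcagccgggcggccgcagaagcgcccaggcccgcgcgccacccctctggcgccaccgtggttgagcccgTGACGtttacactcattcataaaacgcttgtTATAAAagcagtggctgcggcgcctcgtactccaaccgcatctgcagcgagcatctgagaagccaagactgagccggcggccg
FOSL2, chr2:28392608-28392907, plus strand: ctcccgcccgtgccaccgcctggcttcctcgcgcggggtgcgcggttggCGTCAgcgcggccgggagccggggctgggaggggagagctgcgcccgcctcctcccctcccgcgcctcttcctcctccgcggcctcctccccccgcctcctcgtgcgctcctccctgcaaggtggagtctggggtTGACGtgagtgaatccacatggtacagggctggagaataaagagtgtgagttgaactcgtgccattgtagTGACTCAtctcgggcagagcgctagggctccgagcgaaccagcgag
JUN, chr1:58783998-58784297, minus strand: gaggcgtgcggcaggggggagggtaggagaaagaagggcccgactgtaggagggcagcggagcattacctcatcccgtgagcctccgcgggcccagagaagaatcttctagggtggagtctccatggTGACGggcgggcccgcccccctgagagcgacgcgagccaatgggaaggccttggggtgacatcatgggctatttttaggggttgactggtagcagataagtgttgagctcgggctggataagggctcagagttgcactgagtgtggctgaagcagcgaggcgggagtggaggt
EGR1, chr5:138465229-138465528, plus strand: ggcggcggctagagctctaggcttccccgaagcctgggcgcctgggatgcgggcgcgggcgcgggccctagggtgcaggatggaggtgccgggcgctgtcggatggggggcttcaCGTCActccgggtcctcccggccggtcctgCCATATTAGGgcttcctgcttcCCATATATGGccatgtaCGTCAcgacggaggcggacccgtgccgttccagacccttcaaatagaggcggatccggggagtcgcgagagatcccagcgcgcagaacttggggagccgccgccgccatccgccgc
IER2, chr19:13150161-13150460, plus strand: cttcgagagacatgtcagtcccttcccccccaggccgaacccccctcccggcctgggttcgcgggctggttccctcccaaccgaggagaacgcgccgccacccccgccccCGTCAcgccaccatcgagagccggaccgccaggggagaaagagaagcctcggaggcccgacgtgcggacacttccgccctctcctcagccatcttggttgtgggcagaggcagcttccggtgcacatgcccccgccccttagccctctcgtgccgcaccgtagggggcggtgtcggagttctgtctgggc
A promoter was given for 9 of the 10 members, FOSL1 being the exception. Among the 9, the CRE core was found in 8 (all but ATF3), against 24.6% of 35116 promoters of the same length. In FOS the CRE core began at position −64 from the start and the TATA motif at −33. The TATA motif was found in FOS, FOSB, JUNB and ATF3 and in 7.33% of all promoters. It began at −30 in FOSB and −31 in JUNB, but at −230 in ATF3. ATF3 had more than a single window, and the motif lay only in that at chr1:212614768-212615067. EGR1 alone among the members had a CArG box, in 2 copies that begin at −105 and −83 from the start, against 1.29% of all promoters. FOSL2 alone had an AP-1 site, which begins at position 5 (7.71% of all promoters), and JUND alone had the full CRE (1.85%). These are matches of letters in one window and not measured binding. A site more than 250 bases before the start could not be found. A gene without a CArG box in the window, FOS included, may have one outside it.

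Values are normalised counts, that is, reads per gene after the authors' scaling between libraries. Per kilobase of exon, and averaged over all 36 libraries, JUND was the most abundant member at 1241 normalised counts per kb. JUN (345), JUNB (339) and IER2 (283) followed, then FOSL2 (116) and ATF3 (110). FOS (18.2), EGR1 (9.15), FOSB (5.21) and FOSL1 (2.84) were expressed at a low level. FOSL1 reached 10 normalised counts in 3 of 36 libraries and FOS in 30 of 36, so counting error weighs most on these. FOS (ENSG00000170345) lies at chr14:75278826-75282230 and FOSL2 (ENSG00000075426) at chr2:28392448-28417317, in GRCh38. JUN (ENSG00000177606) lies at chr1:58776845-58784048, JUNB (ENSG00000171223) at chr19:12791486-12793315 and IER2 (ENSG00000160888) at chr19:13150411-13154911. JUNB shares 259 exon bases, 14.2% of its exon length, with HOOK2 on the opposite strand. HOOK2 is well expressed (mean 1640 normalised counts), and whether reads were counted by strand is not given in the sources used here, so JUNB values may include HOOK2 reads. IER2 overlaps 2 antisense transcripts whose means were 1.31 and 2.40 normalised counts.

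Library totals ran from 20675156 to 22692555 normalised counts, with 6.34 to 8.66% of them mitochondrial. Prostate luminal markers were present in every library, with 19802 to 55194 normalised counts of KLK3, the gene of prostate-specific antigen. Of 12 markers of other cell types, 4 had a mean of at least 10 (COL1A1, PDGFRB, CD68 and VWF), and per library the fibroblast markers summed to 209.6 to 687 normalised counts, the leukocyte markers to 34.9 to 143.8 and the endothelial ones to 185.3 to 713. In a bulk library a smaller share of expressing cells and less RNA per cell cannot be told apart.

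FOS lay above vehicle in most treated libraries at 24 h and below it in all of them at 72 h. At 24 h the vehicle libraries held 24.1, 7.02 and 15.1 normalised counts in replicates 1, 2 and 3. AU2-94 gave 18.2, 96.1 and 58.9 at 1 µM and 228.9, 97.3 and 47.9 at 2 µM. Atirmociclib gave 129.8, 59.8 and 71.5 at 1 µM and 97.4, 32.0 and 7.59 at 2 µM, and ribociclib 62.4, 14.0 and 35.1. Thus 12 of 15 treated libraries were above every vehicle library, and the exceptions were 1 library each of AU2-94 at 1 µM, atirmociclib at 2 µM and ribociclib. In limma on log2(normalised count + 1), FOS rose with AU2-94 at 2 µM by 2.81 on the log2 scale (SE 0.787, adjusted p = 0.0110) and with atirmociclib at 1 µM by 2.49 (adjusted p = 0.0210). With AU2-94 at 1 µM, atirmociclib at 2 µM and ribociclib the differences were 1.70, 1.04 and 1.13 and did not pass (adjusted p = 0.120, 0.338 and 0.299). Within replicate numbers, which the labels call a batch, the log2 difference from vehicle was 1.61 to 3.62 for AU2-94 at 2 µM and 2.18 to 2.92 for atirmociclib at 1 µM. For atirmociclib at 2 µM it was −0.90 in replicate 3 and 2.04 in replicate 2. Each of the FOS calls was lost in 2 of 6 fits without 1 library. The AU2-94 2 µM call was lost without replicate 1 of that group (2.23, adjusted p = 0.0623) or vehicle replicate 2 (2.36, adjusted p = 0.0553). The atirmociclib 1 µM call was lost without replicate 1 of that group (2.17, adjusted p = 0.0822) or vehicle replicate 2 (2.05, adjusted p = 0.0926), and AU2-94 at 1 µM gained a call without its replicate 1 (2.37, adjusted p = 0.0484).

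At 72 h the vehicle libraries held 182.2, 288.6 and 235.1 FOS counts, and the highest treated library 44.9. AU2-94 gave 38.8, 44.9 and 24.9 at 1 µM and 15.5, 33.9 and 24.6 at 2 µM. Atirmociclib gave 15.1, 6.51 and 15.1 at 1 µM and 9.06, 5.46 and 17.0 at 2 µM, and ribociclib 12.7, 12.5 and 2.49. All 15 treated libraries lay below all 3 vehicle libraries. The mean went from 235.3 ± 53.2 (SD, n = 3) in vehicle to 36.2 ± 10.3 with AU2-94 at 1 µM and 9.23 ± 5.85 with ribociclib. The log2 differences were −2.68 and −3.24 with the lower and higher AU2-94 dose, −4.22 and −4.46 with those of atirmociclib and −4.75 with ribociclib, each with an SE of 0.498. With a pseudocount of 8 the last 2 were −3.74 and −3.86. The vehicle mean was itself higher at 72 h than at 24 h (235.3 against 15.4 ± 8.56), a log2 difference of 3.97 (SE 0.704). In the 5 treated groups the 72 h mean was below the 24 h mean, for example 124.7 against 24.7 for AU2-94 at 2 µM.

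**Figure D1:**
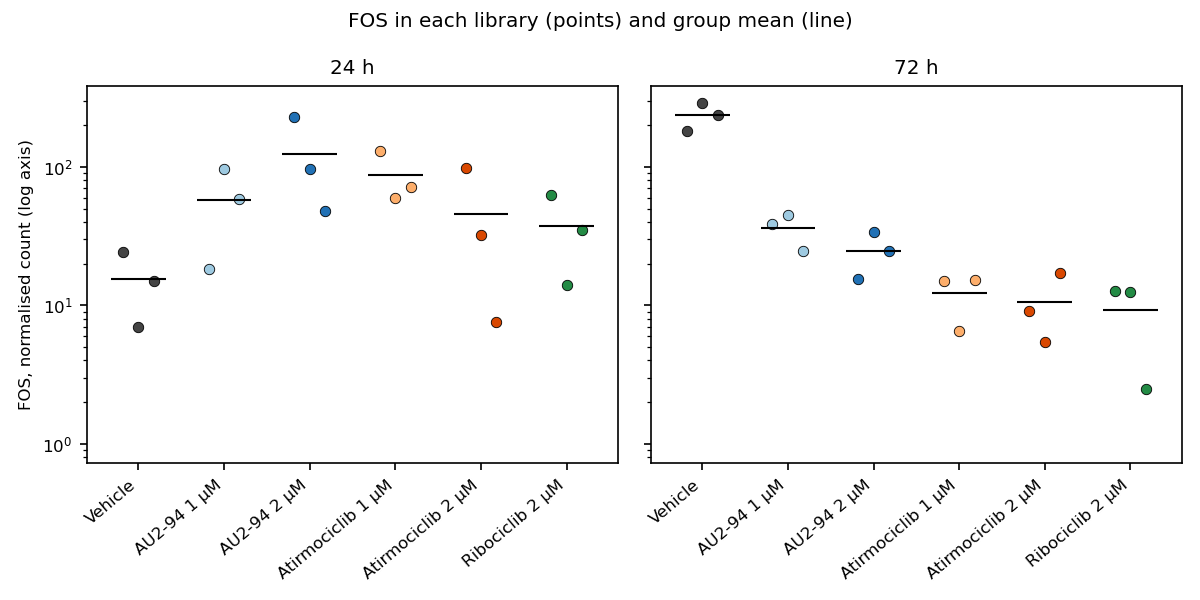
FOS in normalised counts on a log axis, in each of 36 libraries (points, replicates 1 to 3 from left to right) and as the group mean (line), at 24 h (left) and 72 h (right). At 24 h, 12 of 15 treated libraries lie above all vehicle libraries, and at 72 h all 15 lie below vehicle.

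FOSL2 (also called FRA2), a FOS relative without the strong activation domain of FOS, was the only member called in all 10 comparisons with vehicle. At 24 h the vehicle libraries held 603, 604 and 685 counts and the treated ones 683 to 1001 with a median of 849.7, and 14 of 15 were above vehicle. It rose by 0.35 to 0.54 on the log2 scale (SE 0.114, adjusted p = 0.00130 to 0.0278). At 72 h the vehicle libraries held 418.0, 476 and 391 counts, while the treated ones held 825 to 1106, with 15 of 15 above vehicle. FOSL2 rose at least 2-fold: the fold change was 2.03 with AU2-94 at 1 µM, 2.04 at 2 µM, 2.27 with atirmociclib at 1 µM, 2.53 at 2 µM and 2.12 with ribociclib (largest adjusted p = 3.16e-08). FOSL2 and FOS therefore lay on opposite sides of vehicle at 72 h. Every 72 h call of FOSL2 held when any 1 library was left out, with log2 changes of 0.96 to 1.42. At 24 h the AU2-94 1 µM call was lost without its own replicate 2 or 3 or without vehicle replicate 1 or 2 (0.24 to 0.34), the ribociclib call without its replicate 1 or 3 or the same vehicle libraries (0.34 to 0.35), and the atirmociclib 2 µM call without its replicate 1 (0.31). With libraries scaled to equal totals the AU2-94 1 µM call at 24 h was also lost (0.31, adjusted p = 0.0516).

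FOSB, another FOS relative with an activation domain, showed no call at 24 h, where log2 differences ran from −0.35 to 0.43 with an SE of 0.503. At 72 h its vehicle libraries held 59.5, 45.02 and 49.05 counts and the treated ones 11.2 to 50.7, and 14 of 15 were below vehicle. FOSB fell with atirmociclib at 2 µM by 1.47 on the log2 scale (SE 0.408, adjusted p = 0.00736), where the libraries held 24.0, 20.4 and 11.2 counts. It fell with AU2-94 at 2 µM by 1.10 (adjusted p = 0.0494), a call lost with the replicate number as a block (adjusted p = 0.0579), under 4 other settings, and without any one of vehicle replicates 1, 2 and 3 or AU2-94 replicates 2 and 3 (adjusted p up to 0.143). In the other 3 treatments the log2 difference was −0.83 to −0.79 without passing (largest adjusted p = 0.144). FOSL1 (FRA1), which is prominent in invasive cells, held 0 to 14.5 counts over the 36 libraries and was too low to be tested within either time. At 24 h its vehicle libraries held 9.74, 11.6 and 7.10 counts, and 14 of 15 treated libraries were below them.

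JUN, the strongest activator of its family, stayed near vehicle at 24 h and rose at 72 h most with atirmociclib. At 24 h vehicle held 1231, 1229 and 1104 counts and the treated libraries 929.5 to 1484, with no call (log2 difference −0.10 to 0.24). At 72 h vehicle held 974, 1030.4 and 1066 counts. AU2-94 gave 1123, 1181 and 1141 at 1 µM and 1042, 1054 and 1098 at 2 µM, and ribociclib 1170.1, 1155 and 1288. Atirmociclib gave 1423, 1417 and 1539 at 1 µM and 1763, 1715 and 1751 at 2 µM, above every library of the other groups at 72 h. JUN rose 1.43-fold with atirmociclib at 1 µM (adjusted p = 9.94e-07), 1.70-fold at 2 µM (adjusted p = 3.86e-09), 1.18-fold with ribociclib (adjusted p = 0.00447) and 1.12-fold with AU2-94 at 1 µM (adjusted p = 0.0333). AU2-94 at 2 µM gave 1.04-fold (adjusted p = 0.496). The AU2-94 1 µM call was lost without its own replicate 2 or 3 or vehicle replicate 1 or 2 (log2 change 0.13 to 0.17) and when only the 2 groups compared were fitted.

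JUNB, known to oppose JUN at some target genes, was the only member tested that was called in both directions at 72 h. At 24 h no treatment was called (log2 difference 0.04 to 0.18). At 72 h vehicle held 626, 643 and 607 counts, AU2-94 at 1 µM 504, 455 and 469.6, and AU2-94 at 2 µM 545, 487 and 538. Atirmociclib at 2 µM gave 830.4, 741 and 722. JUNB thus lay below all vehicle libraries in the 6 AU2-94 libraries and above them in the 3 of atirmociclib at 2 µM. It fell by 0.39 (adjusted p = 0.00210) and 0.26 (adjusted p = 0.0348) on the log2 scale with AU2-94 at 1 and 2 µM and rose by 0.29 (adjusted p = 0.0146) with atirmociclib at 2 µM. Atirmociclib at 1 µM (−0.08) and ribociclib (0.08) did not differ from vehicle by the test. The AU2-94 2 µM call was lost under equal totals (−0.23, adjusted p = 0.0550), under quantile normalisation and without its own replicate 2 or 3 or any vehicle replicate (−0.28 to −0.21), and the atirmociclib call under equal totals (0.21, adjusted p = 0.0581) or without its replicate 1 (0.23).

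JUND, the JUN family member most often present in resting cells, rose at 24 h with AU2-94 at 2 µM by 0.42 (SE 0.134, adjusted p = 0.0243) and with atirmociclib at 1 µM by 0.49 (adjusted p = 0.00866). Vehicle held 1940, 2002 and 1922 counts there, AU2-94 at 2 µM 2944, 2806 and 2150.1, and atirmociclib at 1 µM 2907, 2458 and 2909. The treated libraries of these groups all exceeded vehicle. At 72 h JUND rose with atirmociclib by 0.19 at 1 µM (adjusted p = 0.0107) and 0.18 at 2 µM (adjusted p = 0.0127). The second of these was lost under equal totals (0.11, adjusted p = 0.120), and both were lost without replicate 3 of the treated group or of vehicle (0.15 to 0.16). At 24 h the AU2-94 call was lost without its replicate 1 or 2, without vehicle replicate 1 or 3 (0.33 to 0.41) or without a trend in the prior variance.

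EGR1, a zinc finger factor and a textbook SRF target, passed no test of the main analysis. Its vehicle libraries held 31.5, 24.6 and 22.2 counts at 24 h and 45.1, 43.7 and 36.2 at 72 h, and the treated ones 16.2 to 37.0 and 23.0 to 46.0. At 72 h 11 of 15 treated libraries lay below vehicle, with log2 differences of −0.55 to −0.23 (SE 0.258, smallest adjusted p = 0.119). Quantile normalisation gave 1 call, with AU2-94 at 1 µM (−0.75, adjusted p = 0.0328). ATF3, a stress-induced partner of JUN, rose at 24 h with AU2-94 at 2 µM by 0.62 on the log2 scale (SE 0.154, adjusted p = 0.00471), with 671, 651 and 563 counts against 408, 446 and 371 in vehicle. No treatment passed for ATF3 at 72 h, where atirmociclib at 2 µM came closest (0.30, adjusted p = 0.0504) and passed under 3 alternatives (0.30 to 0.37, adjusted p = 0.0201 to 0.0436).

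IER2, a nuclear protein induced early by growth factors, was below vehicle in all 15 treated libraries at 72 h. Vehicle held 1066, 1064 and 1163 counts, the treated libraries 701 to 942 with a median of 867. IER2 fell in all 5 treatments, by 0.27 with AU2-94 at 1 µM, 0.34 at 2 µM, 0.28 with atirmociclib at 1 µM, 0.48 at 2 µM and 0.48 with ribociclib (largest adjusted p = 0.0201). At 24 h it passed in none (−0.14 to −0.02), and the treated libraries held 756 to 923 counts against 834 to 982. The calls for AU2-94 and atirmociclib at 1 µM were lost without vehicle replicate 3 (−0.23 and −0.24, adjusted p = 0.0844 and 0.0646). The first was also lost without its own replicate 3 (−0.26) and under quantile normalisation (−0.22), the second without its own replicate 2 (−0.22).

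**Figure D2:**
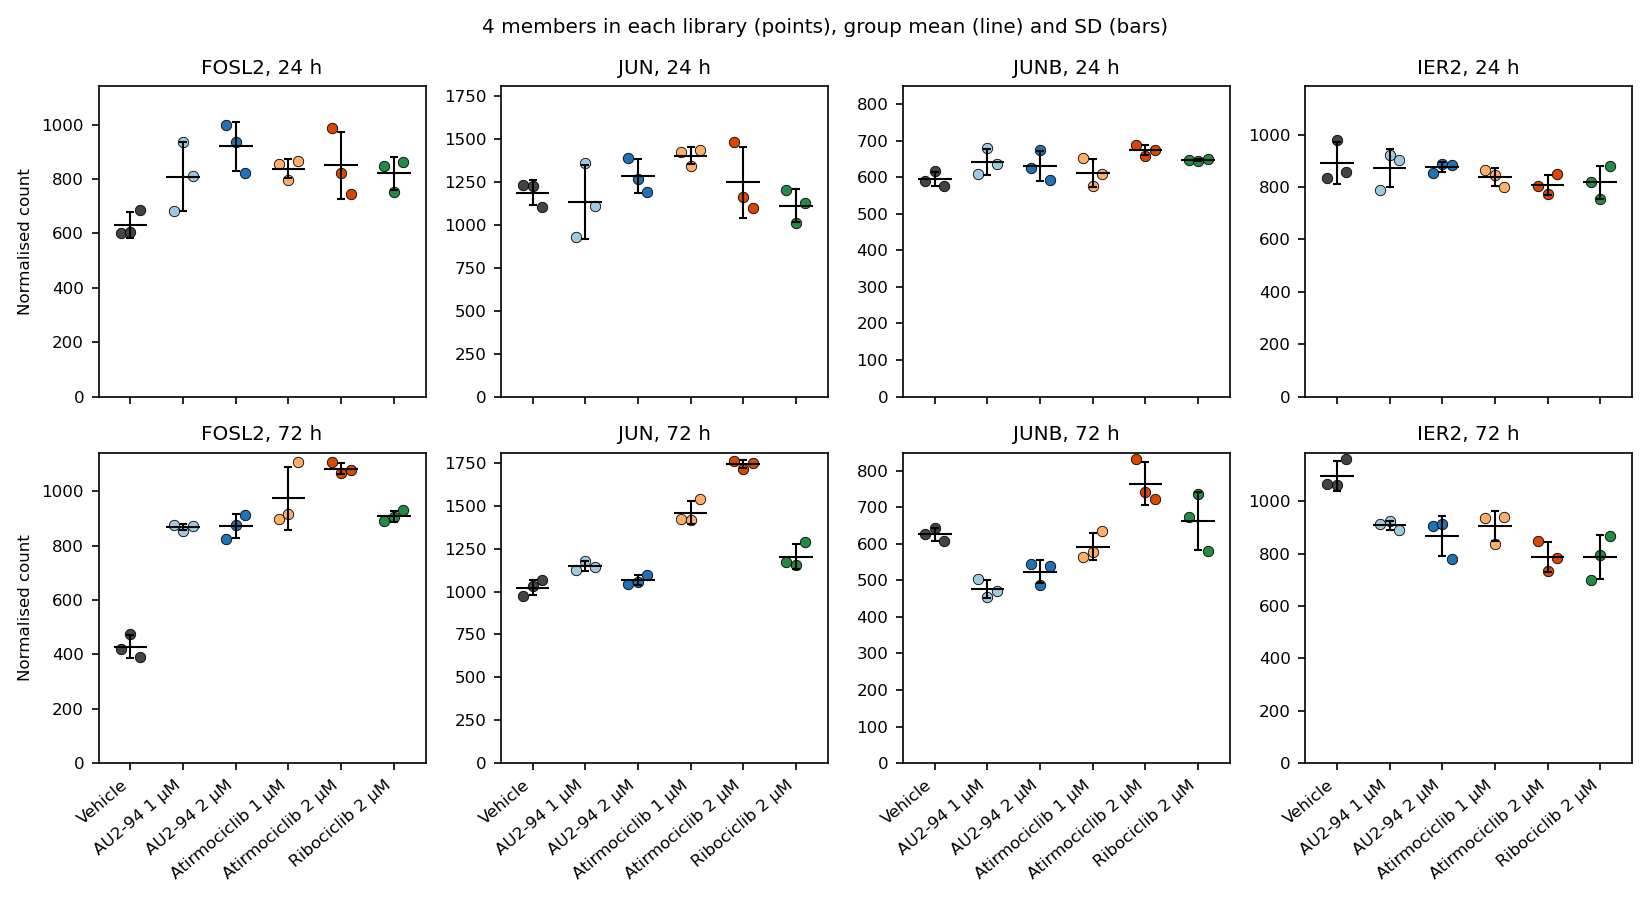
FOSL2, JUN, JUNB and IER2 in normalised counts in each library (points), with group mean (line) and SD (bars, n = 3), at 24 h (top) and 72 h (bottom). At 72 h FOSL2 is above and IER2 below vehicle in all 15 treated libraries, JUN is highest with atirmociclib, and JUNB is lowest with AU2-94.

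Counted over members, 9 of 10 could be tested at 24 h. With AU2-94 at 1 µM 1 member was higher and 0 lower, where 14.3% of all genes tested were called higher and 13.5% lower. With AU2-94 at 2 µM 4 were higher (16% of all genes) and 0 lower (14.9%). Atirmociclib gave 3 higher at 1 µM (16.6%) and 1 at 2 µM (18.6%), with 0 lower at either dose (15.4% and 16.2%). Ribociclib gave 1 higher (16.8%) and 0 lower (15.2%). At an unadjusted p under 0.05, the 5 comparisons held 2, 4, 4, 3 and 1 members, in the same order. Past an adjusted p of 0.05 and a 2-fold change, FOS alone was called, in 2 of the 5 comparisons. Those thresholds were passed by 4%, 5.03%, 5.72%, 6.08% and 5.05% of all genes taking the treatments as listed above.

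At 72 h 8 members were tested besides FOS. AU2-94 at 1 µM gave 2 higher (15.4% of all genes) and 2 lower (17%), and at 2 µM 1 higher (14.2%) and 3 lower (15.3%). Atirmociclib gave 3 higher (20%) and 1 lower (19.8%) at 1 µM, and 4 higher (20.9%) and 2 lower (19.6%) at 2 µM. Ribociclib gave 2 higher (15.5%) and 1 lower (15.4%). FOSL2 passed the 2-fold threshold as well in all 5 comparisons and FOSB in 2, against 4.38%, 3.86%, 6.74%, 7.54% and 4.49% of all genes in the same order. Nothing particular to the list is read from these counts, some of which are below the share of all genes, some near it and some above it.

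**Figure D3:**
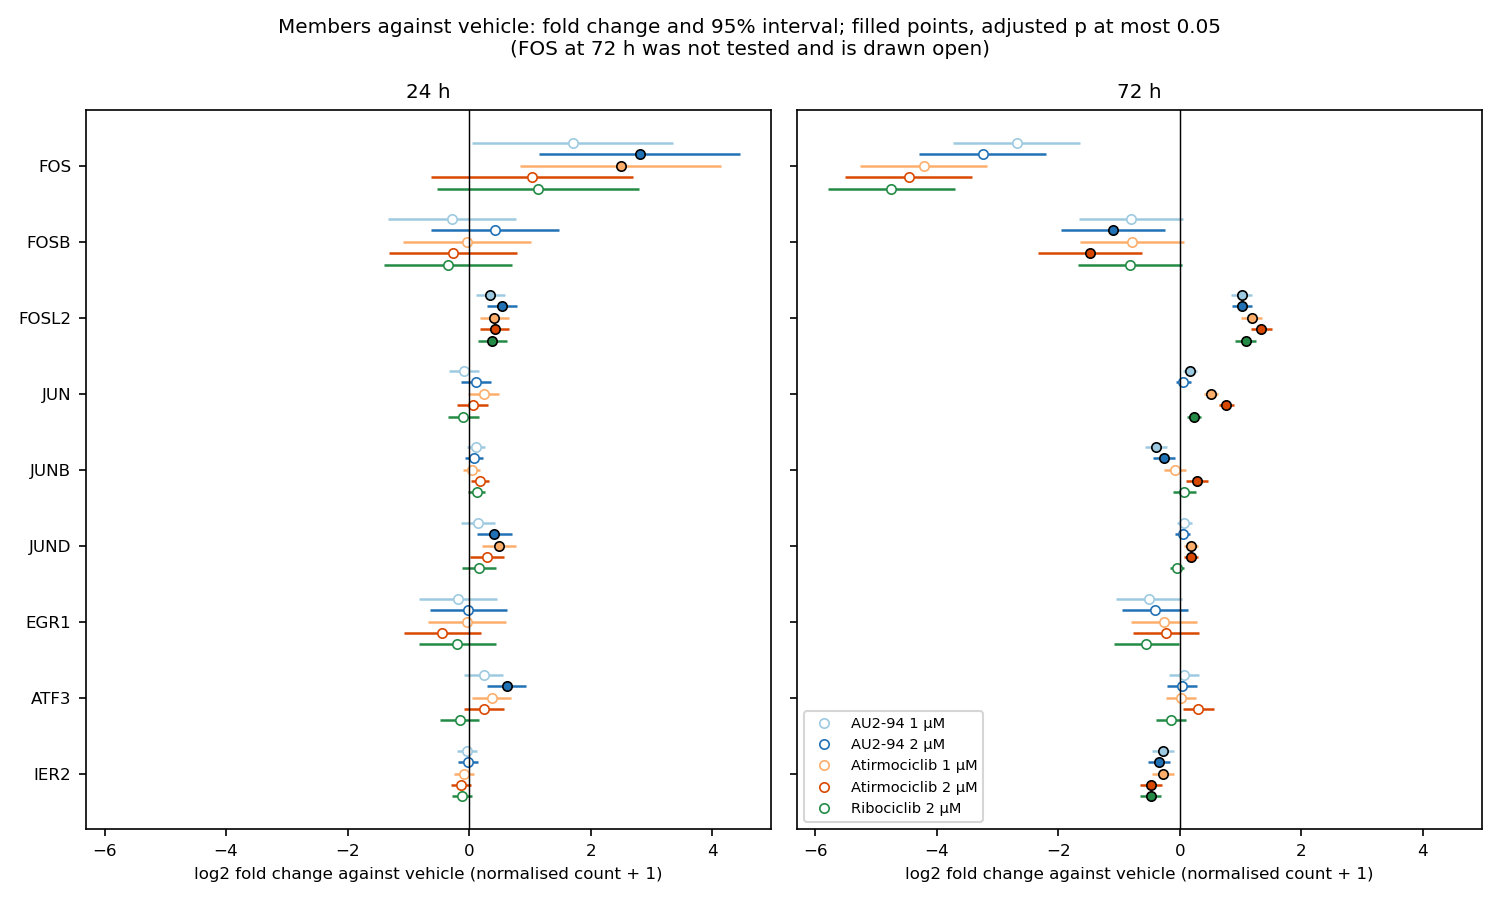
log2 fold change against vehicle of the 9 members tested, with 95% intervals, at 24 h (left) and 72 h (right), one colour per treatment. Filled points have an adjusted p of at most 0.05, and FOS at 72 h, which was not tested, is drawn open. FOS is right of 0 at 24 h and left of it at 72 h, and FOSL2 is right of 0 at both times.

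In vehicle cells, 72 h against 24 h, IER2 rose by 0.30 on the log2 scale (SE 0.0819, adjusted p = 0.0185) and FOSL2 fell by 0.56 (adjusted p = 0.000455), among 9 members tested besides FOS, where 3.85% of all genes were higher and 3.64% lower. IER2 was lost under equal totals (0.25, adjusted p = 0.0562) and without vehicle replicate 1 or 3 of 24 h or replicate 3 of 72 h. FOSL2 was not lost in any of the 6 fits without 1 vehicle library. The 72 h effect minus the 24 h effect was tested in all 36 libraries. FOSL2 changed more at 72 h in all 5 treatments (difference 0.48 to 0.91). JUNB was lower with AU2-94 at both doses, ATF3 with AU2-94 at 2 µM and IER2 with atirmociclib at 2 µM and ribociclib, and JUN was higher with atirmociclib at 2 µM. The share of all genes called in these 5 tests was 21.6%, 18.5%, 21.9%, 21.6% and 20.2%, taking AU2-94 first, then atirmociclib (each with the lower dose first) and last ribociclib. For FOS the difference of effects was −4.39 to −6.71 (SE 0.995), given as a description.

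The inhibitors were compared with each other at the same dose and time in 8 comparisons. At 24 h no member passed in any of 4, by limma, with 2, 2, 2 and 1 members at an unadjusted p under 0.05. The share of all genes called was 4.64% for atirmociclib against AU2-94 at 1 µM, 9.44% at 2 µM, 0.0372% for ribociclib against AU2-94 and 4.64% for atirmociclib against ribociclib. The intervals at 24 h were wide for FOS: atirmociclib minus AU2-94 at 2 µM was −1.77 with a 95% interval of −3.43 to −0.11. For FOSL2 they were narrow, and the same difference was −0.12 with an interval of −0.36 to 0.12.

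At 72 h JUN and JUNB separated the compounds. Atirmociclib exceeded AU2-94 in JUN by 0.35 at 1 µM (adjusted p = 0.000648) and 0.71 at 2 µM (95% interval 0.59 to 0.83, adjusted p = 5.81e-08), and exceeded ribociclib by 0.53 (adjusted p = 5.91e-06). The JUN calls between inhibitors held without any 1 library. JUNB was higher with atirmociclib than AU2-94 by 0.31 at 1 µM (adjusted p = 0.0347) and 0.54 at 2 µM (adjusted p = 0.000208), and higher with ribociclib than AU2-94 by 0.33 (adjusted p = 0.0460). The first of these JUNB calls was lost in 5 of 6 fits without 1 library and under equal totals (0.24). The last was lost in 5 of 6 such fits, with the replicate block (adjusted p = 0.0566) and under 4 other settings (adjusted p up to 0.188). FOSL2 was higher with atirmociclib than AU2-94 at 2 µM by 0.31 (adjusted p = 0.00928). Scaling to equal totals shifted the median of all genes in this comparison by −0.10 (log2), and the FOSL2 call was then lost (0.21, adjusted p = 0.0692). Against ribociclib, atirmociclib was also higher in JUND by 0.22 (adjusted p = 0.0141) and ATF3 by 0.45 (adjusted p = 0.0228), both lost under equal totals (0.16 and 0.38) and when only the 2 groups were fitted (adjusted p = 0.0548 and 0.0765), JUND also under quantile normalisation (0.19). The JUND call was lost without atirmociclib replicate 2 or 3 (0.21 and 0.20) and the ATF3 call without atirmociclib replicate 1 or 2 or ribociclib replicate 2 (0.31 to 0.44). For FOS, as a description, atirmociclib minus AU2-94 was −1.53 at 1 µM (95% interval −2.58 to −0.49) and −1.22 at 2 µM (−2.26 to −0.17), and ribociclib minus AU2-94 −1.504 (−2.55 to −0.46). With a pseudocount of 8 the first was −1.13. For IER2 the 4 differences were −0.14 to 0.00, with intervals reaching from −0.32 to 0.18. The share of all genes called was 8.24% and 19.8% for atirmociclib against AU2-94 at 1 and 2 µM, 3.34% for ribociclib against AU2-94 and 9.18% for atirmociclib against ribociclib.

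Between the 2 doses few members passed the test. AU2-94 at 2 against 1 µM gave no call among 9 members at 24 h, where 0.409% of all genes were called and 1 member had an unadjusted p under 0.05, or at 72 h, where the share was 0% and no member (0) had one. Atirmociclib gave no call at 24 h (0.0124% of all genes, 0 members unadjusted). At 72 h, where 2.19% of all genes were called, JUN rose by 0.26 (adjusted p = 0.0261) and JUNB by 0.37 (adjusted p = 0.0360) from 1 to 2 µM. Each of these was lost in 5 of 6 fits without 1 library, and JUNB also with the replicate block (adjusted p = 0.0509). FOSL2 differed by 0.16 (95% interval −0.01 to 0.33, adjusted p = 0.349). The dose differences of FOS at 24 h were large but imprecise, at 1.10 for AU2-94 (95% interval −0.55 to 2.76) and −1.46 for atirmociclib (−3.11 to 0.20).

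The spread between replicate libraries, part of what chose the members, was widest for FOS at 24 h. Its pooled SD within groups was 1.15 on the log2 scale there and 0.687 at 72 h, against a median of 0.343 and 0.413 for the 500 genes of nearest mean level. In atirmociclib at 2 µM at 24 h the highest FOS library was 12.8-fold the lowest, and in vehicle at 72 h 1.58-fold. FOSB had SDs of 0.689 and 0.547. JUND had 0.193 at 24 h and 0.0630 at 72 h, and JUN 0.168 and 0.0569. JUNB was among the steadiest genes of its level at 24 h, at 0.0666 against a median of 0.114. EGR1 lay below the median of its level at both times (0.335 against 0.435 and 0.288 against 0.349). FOS, JUND and JUN thus varied more at 24 h than at 72 h, while JUNB did not.

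**Figure D4:**
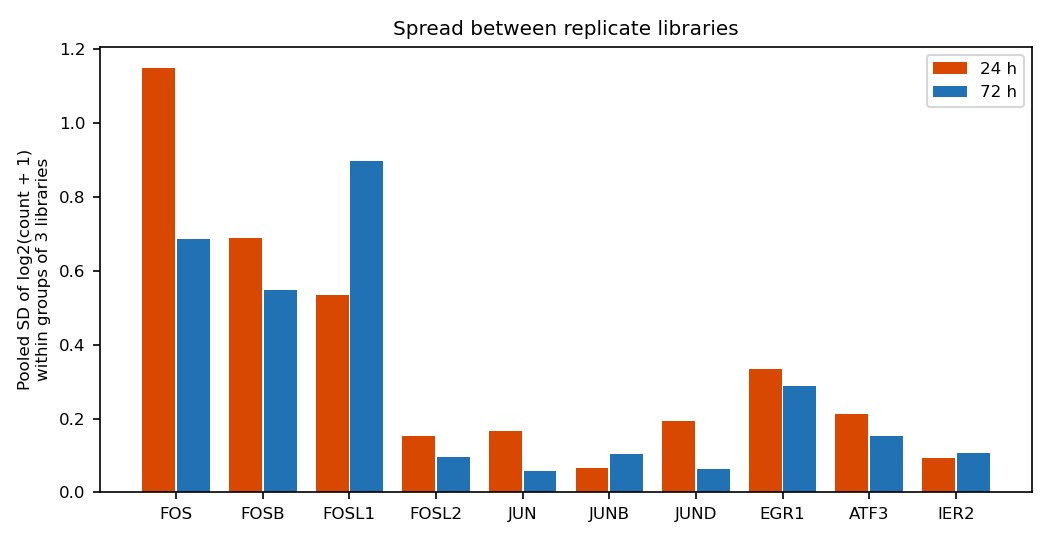
Pooled SD of log2(normalised count + 1) within groups of 3 libraries for each member, at 24 h and 72 h. FOS has the tallest bar at 24 h (1.15), and FOSL1, whose counts are low, the tallest at 72 h (0.898).

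The members did not vary together as a whole. Each library's deviation from its group mean was correlated between members over 36 libraries, where the 3 deviations of a group sum to 0 and all members share the library's scaling. FOS went with JUND (Pearson's r 0.76, Spearman's rho 0.63, and 0.67 without the 2 libraries farthest from the median), FOSL2 (0.67, rho 0.56) and JUN (0.65, rho 0.53). Within times, the FOS and JUND value was 0.87 over the 18 libraries of 24 h and 0.30 over those of 72 h, and the FOS and JUN value 0.83 and −0.15. FOSL2 and JUND gave 0.80 (rho 0.73), JUN and JUND 0.76 (rho 0.60). By time, FOSL2 and JUND gave 0.88 at 24 h and 0.57 at 72 h, JUN and JUND 0.85 and −0.04. FOS and FOSL2 gave 0.86 at 24 h and 0.17 at 72 h. ATF3 went with JUN (0.83), JUND (0.83), FOSL2 (0.73) and FOS (0.63) at 24 h. At 72 h its values with these were 0.22, 0.05, −0.13 and −0.16. FOS showed no relation to EGR1 (0.03), IER2 (−0.01) or FOSB (0.18). In 3 of the 6 groups at 24 h the same libraries were highest and lowest in FOS, JUND, JUN and FOSL2: replicate 2 was the highest and replicate 1 the lowest of the AU2-94 1 µM group in all 4, and replicate 1 the highest and replicate 3 the lowest of AU2-94 at 2 µM. In atirmociclib at 2 µM replicate 1 was the highest and replicate 3 the lowest in all 4. ATF3 had the same highest and lowest libraries in these 3 groups. The other 3 groups did not show this in full. In atirmociclib at 1 µM and in ribociclib replicate 2 was the lowest in all 4, but the highest library was not the same in all. In vehicle, replicate 2 was the lowest in FOS (7.02) and the highest in JUND (2002), in atirmociclib at 1 µM replicate 1 was the highest in FOS but replicate 3 in JUN and FOSL2, and in ribociclib replicate 1 was the highest in FOS but replicate 3 in FOSL2.

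**Figure D5:**
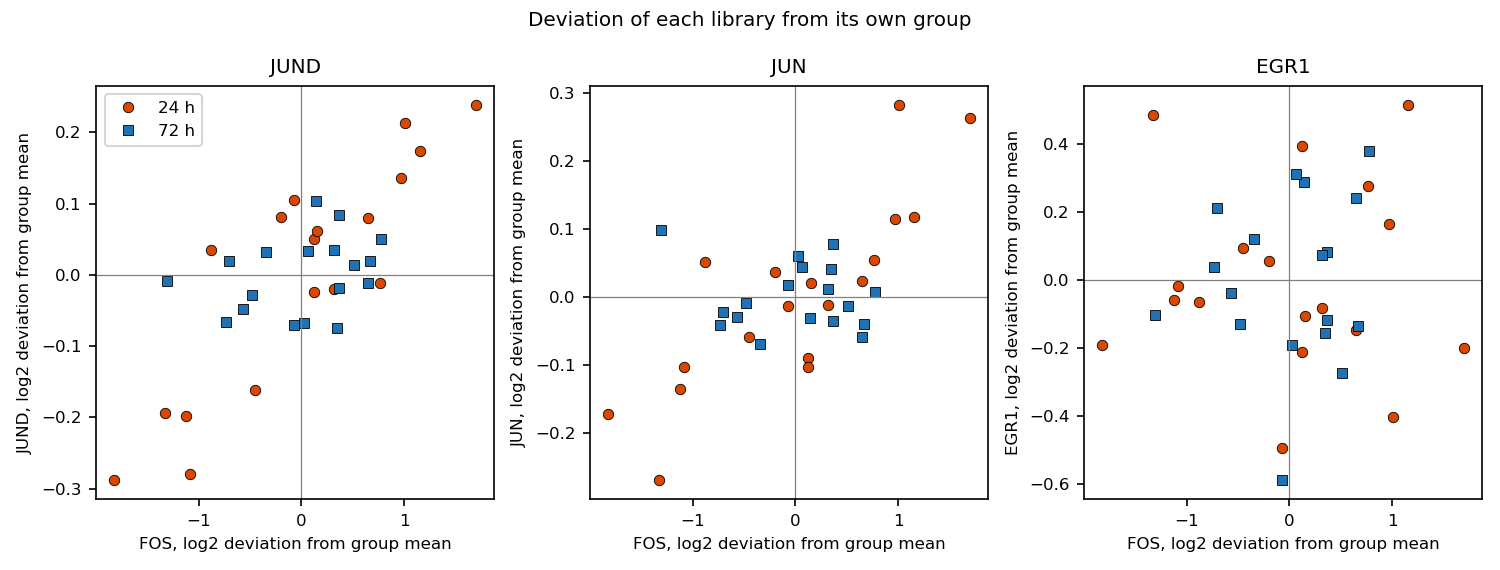
Each library's log2 deviation from its group mean for FOS (x axis) against JUND, JUN and EGR1 (y axes), orange circles for 24 h and blue squares for 72 h. JUND and JUN rise with FOS at 24 h (r 0.87 and 0.83) and EGR1 does not (r over both times 0.03).

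Among 12468 genes with a mean of at least 50 normalised counts, and leaving out the members, of which JUND (0.76) came closest, those whose deviations were most like those of FOS over the 36 libraries were DUSP1 (r 0.79), VEGFA (0.71), BHLHE40 (0.71), GDF15 (0.70) and NDRG1 (0.70). DUSP1 is an immediate early phosphatase of MAP kinases. Over the 12 group means, the most similar genes other than members were CREB3L2 (0.92), GPCPD1 (0.88), FLYWCH2 (0.88), ALKBH2 (0.88) and NLRX1 (0.86). Of the members, IER2 was at 0.65 and FOSB at 0.59 by group means, and FOSL2 at −0.59. These are descriptions without a test.

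Other genes of the pathway were counted by list. Over the comparisons with vehicle, 14.3 to 18.6% of all genes were called higher and 13.5 to 16.2% lower at 24 h, and 14.2 to 20.9% higher and 15.3 to 19.8% lower at 72 h, and the counts below stand against these shares. Of 25 other immediate early genes listed, 18 could be tested at each time. At 24 h 2 to 7 were higher and 2 to 5 lower depending on treatment, with a median log2 difference of 0.05 to 0.25. The median over all genes lay between −0.01 and 0.01 in every comparison with vehicle. NFKBIZ, an inducible regulator of NF-κB, differed by −1.13 to −0.59 and passed with a 2-fold change in 3 of 5 treatments. At 72 h 2 to 4 were higher and 2 to 3 lower, with medians of −0.13 to 0.05. Some genes of these lists are named after their values were seen, because they passed the adjusted p in all 5 treatments. At 24 h these were TRIB1, a pseudokinase, higher by 0.35 to 0.58, and IER5, with a log2 difference of −0.99 to −0.55. At 72 h they were the nuclear receptor NR4A1, higher by 0.33 to 0.57, and BTG2, an antiproliferative gene, higher by 0.21 to 0.34. NR4A1 and BTG2 were therefore above vehicle at 72 h, where FOS and IER2 were below it. Other genes of the list were lower there too, also named after their values were seen. DUSP1 passed as lower in 4 of 5 treatments (−0.48 to −0.02) and IER5 in 3 (−0.85 to −0.23).

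Of 15 AP-1 partners listed, 12 were tested, with 2 to 3 higher and 0 to 1 lower at 24 h and 2 to 3 in each direction at 72 h. MAF, a bZIP factor able to pair with FOS and JUN, rose in all 5 treatments at both times, by 1.35 to 1.79 on the log2 scale at 24 h and by 1.79 to 2.63 at 72 h. Its vehicle means were 748 and 261 normalised counts. At 72 h MAFK was also higher in all 5 (0.26 to 0.58). Of 23 MAP kinase and SRF pathway genes, all tested, the calls at 24 h were 1 to 4 upward and 2 to 4 downward, and at 72 h 2 to 5 upward and 2 to 6 downward. MAPK10, which encodes the JNK3 kinase, rose in all 5 treatments at 72 h by 1.14 to 1.57, from a vehicle mean of 79.3. Chosen after its values were seen, MAP2K1 (MEK1) rose in all 5 at both times, by 0.37 to 0.47 and 0.19 to 0.63. RPS6KA3 (RSK2), a kinase activated by ERK, was lower in all 5 at both times, with differences of −0.84 to −0.53 and −0.41 to −0.33. RPS6KA5 (MSK1) was lower in all 5 at 24 h (−0.91 to −0.46) and MAPK9 (JNK2) at 72 h (−0.31 to −0.18). Of 13 ERK feedback genes 12 were tested, and 0 to 2 rose and 2 to 3 fell at 24 h, against 1 to 4 and 2 to 3 at 72 h. SPRED2 was lower in all 5 at 24 h (−0.65 to −0.42) and SPRED3 higher in all 5 at 72 h (0.59 to 1.28). Named after their values were seen, DUSP4 (−0.87 to −0.49) and EPHA2 (−0.89 to −0.37) were lower in 4 of 5 at 24 h. SPRY4, low in vehicle (means 16.1 and 33.7), passed both thresholds upward in 3 of 5 at 24 h (0.89 to 1.81). At 72 h SPRY4 passed them downward in 2 of 5 (−2.55 to 0.48 over the treatments). Only 4 of 14 AP-1 target genes were expressed enough to test, with 1 to 2 called upward and 0 to 2 downward per comparison. CCND1, the cyclin D1 gene, also named after its values were seen, was among them and rose in all 5 treatments at both times, by 0.56 to 0.70 and 0.31 to 0.58. At 24 h PLAUR, the urokinase receptor gene, and MMP13, a collagenase gene, both low in vehicle (means 26.7 and 19.4 normalised counts), each fell past both thresholds in 4 of 5 treatments, with differences of −3.35 to −1.48 and −2.46 to −0.95, and are also named after their values were seen. Over the treatments the median of the 4 genes ran from −1.18 to −0.44 for 24 h and from 0.10 to 0.27 for 72 h. HMOX1, the remaining gene, was called in no comparison with vehicle.

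Heat shock genes were followed as a sign of stress. Of 11 tested, 24 h brought 4 to 6 falls and 1 rise, and 72 h 6 to 10 falls and 0 to 1 rises, with a median log2 difference of −0.34 to −0.15 at 72 h. The rise at 24 h was that of HSPA1B, an HSP70 gene, higher in all 5 treatments by 0.26 to 0.41 (limma, largest adjusted p = 0.000552). Their summed level was 137162 to 139926 normalised counts in vehicle at 24 h and 117649 to 132730 in treated libraries, and 141207 to 145592 against 109651 to 130477 at 72 h. Vehicle and treated libraries did not overlap in this sum at either time. For how many of all genes that holds was not counted. The largest parts of the sum at 24 h were HSPA8, HSP90AA1 and HSPD1 (means 48962, 29489 and 18785 normalised counts), and HSPA1B went the other way there. Whether stress changed, and the part of the shift in the sum in the levels of FOS, IER2 and the other members, were not tested.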

How the data were processed

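Total RNA of LNCaP cells was sequenced in 36 libraries (12 groups of 3, described by the study as biological replicates). The authors aligned reads to GRCh38 with STAR 2.6.1d in the nf-core/rnaseq pipeline and used DESeq2. The deposited values are a signal, normalised counts per Ensembl gene. The counter, annotation release and strand setting are not given in the sources used here. The values are not raw counts: 26.1 to 54.2% of values under 5 lay within 0.02 of a whole multiple of a library's step, so whole reads were not recovered, and no interval for counting error can be given.

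Values were tested as log2(normalised count + 1) with limma 3.58.1 (R 4.3.3, trended eBayes). The 18 libraries of 24 h and the 18 of 72 h were fitted apart, and all 36 jointly for comparisons between times. Genes needed 10 normalised counts in 3 libraries, which left 16137 genes at 24 h, 16341 at 72 h and 16850 over both. P-values were adjusted by Benjamini-Hochberg over all genes of a contrast, and called at 0.05, alone or with an absolute log2 fold change of 1. Fold changes of low genes are understated by the pseudocount. The scripts were tested on simulated data. P-values measure the spread between these samples, which may be partly technical. Alternatives were pseudocounts, filters, scalings, a replicate block, other variance priors, fits of the groups compared alone and leaving out each library. Replicate numbers are a batch in the labels. Deviations of libraries with the same number had a mean correlation of 0.0018 at 24 h, where the 45 pairs ran from −0.09 to 0.11, and of −0.0022 for the 72 h libraries. The main fit has no block.

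The members and gene lists were chosen with earlier results of these data known. All members are named. From each pathway list, up to 2 genes per direction and time are named, those with the largest mean change among genes past both thresholds in at least 3 of 5 treatments and with a mean of at least 50. Exon lengths and positions came from GENCODE 44 and promoters from RefSeq. The vehicle labels also carry a dose, which was not used.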

Additional observations from a re-analysis of the deposited data

Results flagged for a closer look

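For 11 pairs of a member and a treatment, the effect against vehicle at 72 h differed from that at 24 h, by the limma test of the difference itself over all 36 libraries (log2 scale, adjusted p over 16850 genes). FOSL2 was raised more at 72 h in every treatment, by 0.67 with AU2-94 at 1 µM (SE 0.143, adjusted p = 0.000861), 0.48 at 2 µM (adjusted p = 0.0156), 0.77 with atirmociclib at 1 µM (adjusted p = 0.000167), 0.91 at 2 µM (adjusted p = 1.62e-05) and 0.71 with ribociclib (adjusted p = 0.000487). The vehicle FOSL2 level itself was lower at 72 h than at 24 h, and these 5 differences share the same 6 vehicle libraries.

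For JUNB the 72 h effect of AU2-94 minus the 24 h effect was −0.50 at 1 µM (SE 0.108, adjusted p = 0.000971) and −0.34 at 2 µM (adjusted p = 0.0255), and for ATF3 it was −0.59 with AU2-94 at 2 µM (SE 0.202, adjusted p = 0.0400). For IER2 it was −0.34 with atirmociclib at 2 µM (SE 0.116, adjusted p = 0.0326) and −0.36 with ribociclib (adjusted p = 0.0249). For JUN it was 0.71 with atirmociclib at 2 µM (SE 0.138, adjusted p = 0.000298). The FOSL2 differences other than that of AU2-94 at 2 µM, the JUNB difference of AU2-94 at 1 µM and the JUN difference held without any 1 of the 12 libraries each rests on. The ATF3 difference was lost in 9 of 12 such fits, the 2 IER2 differences in 7 and 5, the other JUNB difference in 4 and the other FOSL2 difference in 3.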

How the results depend on the processing

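Of 4265 recomputed values for single members, 4090 kept their direction and their side of the threshold (or, untested, moved by less than 1 SD), 135 lost a call, 32 gained one and 8 untested FOS values moved by more than 1 SD. No called value changed sign. Summed over the 5 treatments, the 2 FOS calls past both thresholds at 24 h became 0 where genes needed a mean of 100, since FOS then left the test, and 1 member comparison became lower at 24 h under equal library totals (IER2, atirmociclib at 2 µM). The 2 FOSB calls past both thresholds at 72 h became 1 with pseudocounts of 8 or 0.5, no filter, equal totals, the replicate block or no trend, and 0 with the mean filter. The 9 calls between inhibitors at 72 h became 4 under equal totals, and 1 lower call (FOS, given above as a description) appeared with a pseudocount of 8 or the compared groups alone. At 24 h 1 lower call (ATF3, ribociclib against AU2-94) appeared with the mean filter. The 2 dose calls at 72 h became 0 under equal totals, quantile normalisation or the compared groups alone, and 1 with the replicate block or no trend. Under equal totals the 5 lower differences between times became 2, and the IER2 rise in vehicle went from 1 call to 0. With a pseudocount of 8 the replicate SD moved from 0.687 to 0.424 for FOS at 72 h and from 0.534 to 0.233 and 0.898 to 0.347 for FOSL1 at 24 and 72 h. The replicate block changed 3 of 258 member results, all given above with their adjusted p. Other than where named, the cause was not tested.

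Leaving out 1 library at a time kept 29 of 55 calls in every fit. The counts of calls then ranged from 6 (without vehicle replicate 2) to 13 (24 h, higher), 0 to 3 (24 h, past both thresholds), 10 to 13 (72 h, higher), 3 to 5 (72 h, higher past both thresholds), 5 (without vehicle replicate 3) to 10 (72 h, lower), 1 to 3 (72 h, lower past both thresholds), 0 to 1 in each direction between inhibitors at 24 h, 6 to 9 higher and 0 to 2 lower between inhibitors at 72 h, 0 to 2 (dose, 72 h, higher), 5 to 8 and 1 to 7 (differences between times, higher and lower) and 0 to 1 (vehicle over time, higher). FOS under 20 normalised counts and FOSL1 throughout are limited by depth.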
